A study of Homo sapiens with 10 samples.

Results

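A-rich intronic peaks of long genes are places within introns where poly(A) 3′-seq reads pile up directly before a stretch of genomic A. Of the 178837 peaks in the deposited list, 22366 (12.5%) met the rule used here. The summit lay in an intron of a protein-coding gene longer than 300 kb with no gene on the other strand, more than 2 kb from the start of the canonical transcript and outside exons and the windows from 200 bp before to 600 bp after any annotated transcript end. At least 7 of the 10 genomic bases directly downstream of the 3′ edge of the peak were A on the strand of the gene. They made up 76.3% of the 29297 intronic peaks that met the rule apart from its A content, and the remaining 6931 are called A-poor below. Of 826 protein-coding genes over 300 kb, 691 had at least 1 A-rich peak.

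The reads came from IMR-32, a human neuroblastoma cell line. The cells were transduced with lentiviral pLKO.1 shRNAs and selected with puromycin for 2 days. Of 10 libraries, 4 carried shRNAs against CDK12 (sh22 and sh98), 4 carried shRNAs against CDK13 (sh701 and sh704) and 2 carried an shRNA against GFP as control, and each shRNA had 2 libraries. The paper states that these libraries were processed in 2 batches that varied in sequence quality and depth. The authors downsampled all of them to the size of the smallest library, which is not known here. All were merged before the peaks were called, so no value exists per library. A difference between shCDK12, shCDK13 and shGFP cannot be measured here. The neuroblastoma markers HAND2, GATA3 and TH each had a peak at an annotated transcript end, with a pileup of 46, 60 and 21 reads, and the targeted genes CDK12 and CDK13 had 22 and 34.

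CDK12 and CDK13 are cyclin K-dependent kinases that phosphorylate the tail of the largest subunit of RNA polymerase II, which accompanies elongation and the processing of the transcript. A poly(A) tail is added where the pre-mRNA is cleaved, usually a short distance downstream of a hexamer such as AATAAA or one of its variants, and a site used within an intron yields a shortened transcript. Poly(A) 3′-seq primes reverse transcription with oligo(dT), which can pair with a poly(A) tail and also with a run of A inside a transcript, so an A-rich genomic sequence next to a peak does not tell which of these was primed. Genes of this length consist almost entirely of intron, and many of them encode cell adhesion molecules, receptors and channels of neurons.

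The strongest A-rich peak of each of 7 of the genes with the most of them is shown with the strongest that carries the end of an Alu element, because these sequences show the forms the A stretch took. Positions are those of the whole peak in GRCh38. The letters run 5′ to 3′ on the strand of the gene and cover 60 bases before and 20 bases after the 3′ edge of the peak, and capitals mark the 10 bases counted by the rule.
RBFOX1 (chr16:6142089-6142201, plus strand): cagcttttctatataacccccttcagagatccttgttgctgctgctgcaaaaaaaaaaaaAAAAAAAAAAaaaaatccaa
GPC6 (chr13:93716398-93716548, plus strand): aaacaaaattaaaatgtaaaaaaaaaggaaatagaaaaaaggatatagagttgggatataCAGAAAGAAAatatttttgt
LSAMP (chr3:116644223-116644510, minus strand): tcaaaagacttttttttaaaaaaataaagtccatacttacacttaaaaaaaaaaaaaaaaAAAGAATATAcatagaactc
ASTN2 (chr9:117036375-117036496, minus strand): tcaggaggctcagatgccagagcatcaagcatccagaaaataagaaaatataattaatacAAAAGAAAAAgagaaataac
NALF1 (chr13:107373733-107373855, minus strand): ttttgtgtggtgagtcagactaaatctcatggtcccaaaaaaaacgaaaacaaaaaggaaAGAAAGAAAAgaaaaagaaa
ADGRB3 (chr6:68810550-68810802, plus strand): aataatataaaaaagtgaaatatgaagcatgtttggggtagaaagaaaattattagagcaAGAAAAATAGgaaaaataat
DPP6 (chr7:153995488-153995601, plus strand): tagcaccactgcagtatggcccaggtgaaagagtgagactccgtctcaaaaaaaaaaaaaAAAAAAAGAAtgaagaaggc
RGS7 (chr1:241174909-241175020, minus strand): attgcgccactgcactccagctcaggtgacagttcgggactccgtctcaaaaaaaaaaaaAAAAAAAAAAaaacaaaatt
In the canonical transcripts these peaks lay in intron 1 of 15 of RBFOX1, 2 of 8 of GPC6, 6 of 22 of ASTN2, 1 of 2 of NALF1, 3 of 31 of ADGRB3 and 2 of 18 of RGS7, and those of LSAMP and DPP6 lay in introns of other transcripts. RBFOX1 and RGS7 ended in long unbroken runs of A, and in LSAMP and DPP6 such a run crossed the edge and stopped within the 10 bases. In DPP6 and RGS7 the run directly followed CTCCGTCTC, the last bases of an Alu element before its A tail. In GPC6, ASTN2, NALF1 and ADGRB3 the A bases were broken up by other letters.

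The 5 peaks with the highest −log10 q-value, 53.6, 46.2, 44.8, 43.5 and 43.3, lay in LSAMP, NAV2, SYT1, KALRN and again SYT1. LSAMP encodes an adhesion protein of the neuronal surface, NAV2 a neuron navigator, SYT1 the calcium sensor of synaptic vesicle release and KALRN a guanine nucleotide exchange factor for small GTPases. Their pileups were 47, 37, 46, 37 and 52 reads. All 5 had 7 or 8 A in the 10 bases, so none of them had an unbroken run of A over the whole of it. Runs could still reach beyond these bases. In LSAMP, shown above, the edge lay inside a long unbroken run of A that began before it. In KALRN a run of 10 A began within the counted bases and went on past them. Sequences of the NAV2, SYT1 and KALRN peaks are given, cut and marked in the same way.
NAV2 (chr11:19540793-19540969, plus strand): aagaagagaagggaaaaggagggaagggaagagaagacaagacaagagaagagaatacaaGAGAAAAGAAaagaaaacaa
SYT1 (chr12:79082839-79083086, plus strand): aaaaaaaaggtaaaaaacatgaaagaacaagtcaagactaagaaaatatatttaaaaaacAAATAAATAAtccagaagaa
KALRN (chr3:124433128-124433286, plus strand): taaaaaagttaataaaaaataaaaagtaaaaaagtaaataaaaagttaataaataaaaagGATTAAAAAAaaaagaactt
SYT1 (chr12:78931071-78931221, plus strand): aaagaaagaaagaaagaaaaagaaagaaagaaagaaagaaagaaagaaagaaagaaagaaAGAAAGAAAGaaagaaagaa
The second SYT1 peak, in intron 1 of 10, lay inside a repeat of AAAG, and the other 3 lay in purine-rich or A-rich sequence with frequent interruptions.

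The typical A-rich peak was low and narrow. The pileup, the number of distinct read positions stacked at the summit, was recovered from the deposited fold and p-value and had a median of 7 with a 10th percentile of 5, a 90th percentile of 14 and a maximum of 52. The median fold over the local background, computed with 1 added to both pileup and background, was 5.93, and the background itself had a median of 0.35. The median width was 103 bp, against 106 bp for A-poor peaks and the 100 bp to which the authors extended each read. A pileup of at least 10 was reached by 29.9% of the A-rich peaks (95% Wilson interval 29.3% to 30.5%) and by 30.6% of the A-poor peaks of the same genes, a difference of −0.67 percentage points (95% interval −1.92 to 0.56, Fisher's exact test p = 0.287). High peaks were less frequent among them, with a pileup of at least 20 in 1.87% against 2.73%, a difference of −0.86 percentage points (−1.30 to −0.45, Fisher's exact test p = 2.1e-05). All intervals and p-values here cover counting error only, since peaks and sites of 1 pooled list are not independent replicates.

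Peaks in longer genes were lower. In introns of genes under 50 kb, 46.1% of 7023 A-rich peaks reached a pileup of 10, and in genes of 50 to 300 kb 36.6% of 36885 did. Part of the order remained among genes with a similarly high peak at their ends, which served as a rough measure of expression. The pileup counts distinct read positions, so reads that share a position add nothing to it. An end peak can therefore understate high expression, and its classes do not hold expression fixed. Where the highest end peak had a pileup of 20 to 39, the shares were 34.8% over 300 kb (95% interval 33.9% to 35.8%), 39.2% at 50 to 300 kb (38.6% to 39.9%) and 48.8% under 50 kb (47.2% to 50.5%). Within the long genes the share rose with the end peak, from 23.5% where it was under 20 to 42.8% where it was 40 or more, and the A-poor peaks rose alike, from 24.7% to 41.5%. An end window may also hold the end of a neighbouring gene, since the list has no strand.

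The A count of the 10 bases was 7 in 5281, 8 in 6790, 9 in 4654 and 10 in 5641 of the A-rich peaks. Just outside the rule stood 3261 peaks with 6 A, which had a median pileup of 8 and a hexamer upstream in 69.8%, beside 7 and 67.4% for the peaks with 7 A. A pileup of at least 10 was reached by 35.6% of the peaks before 10 A, against 29.1% with 7 A, 27.7% with 8 A and 27.3% with 9 A. A pileup of at least 20 had another order, with 1.70% before 10 A, 2.06% with 7 A, 1.99% with 8 A and 1.68% with 9 A.

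The A stretch extended past the bases that the rule used. In bases 11 to 20 downstream of the 3′ edge, A made up 68.8% of the letters at A-rich peaks and 51.1% at A-poor peaks, and in bases 41 to 60 it was down to 33.5% and 32.9%. The A-poor peaks were therefore not free of A, which rose just beyond the 10 bases that set them apart. Upstream, A made up 46.3% of the last 10 bases before the edge of A-rich peaks, and 11.7% of A-rich peaks had at least 6 A in a row directly before the edge. That share was 2.42% with 7 A and 30.3% with 10 A downstream, so the edge lay inside the A run, and not at its start, more often when the run was full. A stretch of 25 bases with at most 3 letters other than A started and ended within 50 bp downstream of 12.02% of A-rich peaks.

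Poly(A) signal hexamers were less frequent before A-rich peaks than before A-poor ones. Any of 12 hexamers stood within 100 bp upstream of 46.7% of A-rich peaks (95% interval 46.1% to 47.4%) and of 68.5% of A-poor peaks, a difference of −21.7 percentage points (−23.0 to −20.5). The hexamers were searched on the strand of the gene, and they overlap one another and A-rich sequence. AATAAA was found before 13.6% of A-rich against 25.9% of A-poor peaks, AAGAAA before 13.5% against 20.3%, AATGAA before 7.39% against 10.5% and ATTAAA before 6.74% against 11.9%. The others were AATATA at 5.37% of A-rich peaks, TATAAA at 5.10%, AATAGA at 4.91%, AGTAAA at 4.69%, AATACA at 4.04%, GATAAA at 3.91%, CATAAA at 3.71% and ACTAAA at 3.55%, and each of the 12 was more frequent before A-poor peaks. Restricted to the place where signals usually lie, 40 to 10 bp upstream, AATAAA or ATTAAA stood before 1586 A-rich peaks, or 7.09%, against 19.8% of A-poor peaks, a difference of −12.7 percentage points (−13.7 to −11.7).

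The hexamer share fell with the A count, from 67.4% with 7 A over 58.4% with 8 A and 41.02% with 9 A to 17.9% (95% interval 16.96% to 18.96%) with 10 A. The 1586 peaks with AATAAA or ATTAAA 40 to 10 bp upstream were higher than the rest, with a pileup of at least 10 in 38.6% (36.2% to 41.01%) against 29.3% (28.7% to 29.9%), although just 6.18% of them had 10 A against 26.7% of the rest. They lay in 485 genes. A-rich peaks of long genes had a hexamer more often than those of genes under 50 kb, 46.7% against 33.8%, a difference of 12.9 percentage points (11.6 to 14.2). Sites without a peak were not searched for hexamers in the shorter genes. The sequence upstream differed too. From 100 to 51 bp before the edge, A and T made up 30.2% and 25.1% in long genes against 27.6% and 23.1%. Whether the hexamer difference went with base composition was not tested. An A stretch of 25 bases together with no hexamer, the pair of features by which the study recognised false positive peaks, was found at 9.64% of A-rich peaks in genes over 300 kb and at 11.9% of those in genes under 50 kb.

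To see how many places of this kind stayed without a peak, every A-rich site of the same introns was counted. An A-rich site is a stretch of positions, merged over gaps of up to 10 bp, whose next 10 bases on the gene strand hold at least 7 A. Genes over 300 kb held 2205435 such sites, and 22258 of them, or 1.01% (95% interval 0.996% to 1.02%), had the 3′ edge of an A-rich peak in them, 1 peak each. The edges of the other 108 A-rich peaks fell outside the eligible intronic sequence although their summits lay in it. Counts of sites by A run, by sequence and by position in the intron or gene are over the 1886783 sites of the 691 genes with an A-rich peak, or those of them that fall in the classes given, and comparisons of gene lengths and gene groups are over the sites of all genes unless stated otherwise.

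The share of sites with a peak rose with the length of the A run, of which the rule fixed only the minimum A content. A longer run also holds more positions where an edge counts as lying in the site. The shares are per site and were not divided by the width of the site, so part of the rise is built into the count. A peak stood at 0.184% of 1142565 sites whose longest unbroken run was 2 to 4 A, at 0.869% with 5 or 6 A and at 4.13% with 7 to 9 A. The share reached 15.01% of 28127 sites with 10 to 14 A, 24.0% of 10981 sites with 15 to 19 A and 41.9% of 7269 sites with 20 to 29 A (95% interval 40.8% to 43.1%). At the 891 sites with 30 A or more it was 39.1% (35.9% to 42.3%), no longer above the class before. Sites with a long run were rare, so the 12008 sites with a peak and a run of 2 to 9 A outnumbered the 6854 with 10 to 19 A and the 3396 with 20 or more.

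Within each class of run length the share rose with the peak at the gene's ends. For runs of 20 A or more it was 38.4% where there was an end peak of under 20, 56.5% (95% interval 54.6% to 58.4%) at 20 to 39 and 58.1% (53.4% to 62.8%) at 40 or more. For runs of 2 to 9 A the same classes gave 0.555%, 1.05% and 1.39%.

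**Figure D1:**
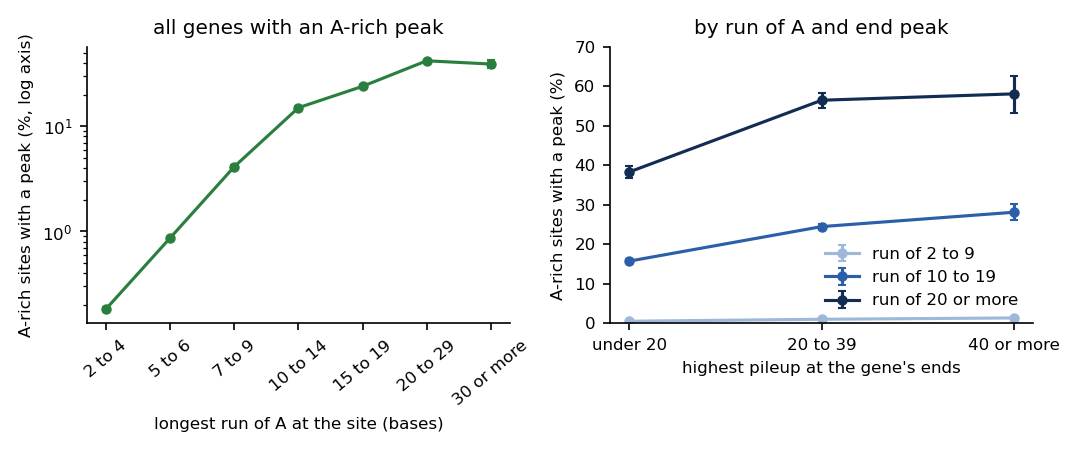
Share of A-rich intronic sites with a peak (percent, y axis) by the longest run of A at the site (left, log axis) and by the highest pileup at the gene's transcript ends for 3 classes of run (right). Points are shares over sites, not divided by the width of the site, and bars are 95% Wilson intervals. The share climbs from 0.184% with 2 to 4 A to 41.9% with 20 to 29 A, and for runs of 20 or more it lies at 38.4%, 56.5% and 58.1% in the 3 classes of end peak.

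The letters before the A run were compared between sites with and without a peak from the same starting point, the first position of the site, since the edge of a peak can lie deeper in the run. Of all 8-base words from 40 bp before to 10 bp after this position that occurred at 200 or more sites with a peak, 115 were at least 10 times as frequent as at sites without one. Among them CTGCACTC, a word found in the 3′ arm of Alu elements, primate retroelements that end in an A tail, stood at 14.7% of sites with a peak and at 0.902% of sites without one.

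CTCCGTCTC, which was searched on the gene strand within 100 bp upstream and into the first 10 bases of the site, was held by 3.80% of the 22258 sites with a peak (95% interval 3.55% to 4.06%) and by 0.312% of the 1864525 sites without one. The spellings CTCTGTCTC and CTCCATCTC were added after the 8-base words had been seen, and any of the 3 was held by 14.3% against 1.39%. This difference went with the length of the A run. Among sites with runs of 10 to 19 A, the 3 spellings stood at 17.5% of sites with a peak and 17.6% of sites without one, a difference of −0.14 percentage points (95% interval −1.11 to 0.87, Fisher's exact test p = 0.793). Among runs of 20 A or more they stood at 37.3% and 41.6%, a difference of −4.28 percentage points (−6.42 to −2.13). Among runs of 2 to 9 A the motif was the more frequent at sites with a peak, 6.08% against 0.996%, a difference of 5.08 percentage points (4.67 to 5.53). This class did not hold the run length fixed. Within it a peak stood at 0.184% of sites with 2 to 4 A and at 4.13% with 7 to 9 A. The effect of reads from repeats that could not be mapped to a single place was not tested.

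At the peaks themselves, counted upstream of their own 3′ edge, CTCCGTCTC was found within 100 bp of 825 A-rich peaks in 407 genes, or 3.69%, and within 20 bp of 679. A-poor peaks had it in 0.404%, and A-rich peaks of genes under 50 kb had it in 6.25%, a difference of −2.56 percentage points (95% interval −3.20 to −1.96). Of the A-rich peaks with the motif, 65.1% had 10 A downstream, against 23.7% of the rest, and 37.5% reached a pileup of 10 (34.2% to 40.8%) against 29.6% (29.04% to 30.25%). Just 157 A-rich peaks (0.702%) shared their 50 bases upstream exactly with another A-rich peak.

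Compared in the same way, hexamers did not favour sites with a peak. Any of the 12 stood within 100 bp upstream of 39.5% of sites with a peak and 55.3% of sites without one, and within classes of run length the difference shrank to −3.27 percentage points (95% interval −4.17 to −2.38) for 2 to 9 A and −1.03 (−2.44 to 0.40) for 20 A or more. Run length still varied within the class of 2 to 9 A. AATAAA 40 to 10 bp upstream went the other way at short runs. It stood at 5.26% of sites with a peak and at 4.10% of sites without one among runs of 2 to 9 A, a difference of 1.17 percentage points (0.780 to 1.58, Fisher's exact test p = 6.9e-10), while among runs of 10 to 19 A the difference was 0.26 (−0.14 to 0.69, Fisher's exact test p = 0.212).

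A-rich sites of long genes had a peak less often than those of shorter genes, 1.01% against 1.54% in genes of 50 to 300 kb and 1.52% in genes under 50 kb. The difference from genes under 50 kb was −0.51 percentage points (95% interval −0.55 to −0.47). Over the genes with at least 1 A-rich peak alone the shares were 1.18% in genes over 300 kb, 1.94% in genes of 50 to 300 kb and 2.78% in genes under 50 kb. This choice kept every site with a peak and dropped only sites without one. The sites went from 445355 to 242906 in genes under 50 kb and from 2205435 to 1886783 in genes over 300 kb. The wider gap therefore reflects how many sites were dropped and adds nothing to the order by gene length. That order did not hold at all levels of the end peak. Where the gene had an end peak and the highest was under 20, 0.981% of sites in genes over 300 kb and 1.74% in genes under 50 kb had a peak, at 20 to 39 the shares were 1.86% and 2.31%, and at 40 or more they were 2.40% (2.29% to 2.52%) and 2.25% (2.12% to 2.39%).

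A-rich peaks lay toward the 5′ side of their introns. Of the 20774 that fell in an intron of the canonical transcript, 55.2% (95% interval 54.5% to 55.8%) lay before its midpoint, against 49.6% of A-rich sites without a peak and 59.8% of A-poor peaks. Put as a share of sites, 1.42% had a peak before the midpoint and 1.14% after it, a difference of 0.28 percentage points (0.25 to 0.31, Fisher's exact test p = 1.0e-56). In introns under 10 kb the shares were 1.15% and 1.12%, and in introns over 200 kb they were 1.35% and 1.02%. With each intron cut into 10 equal parts, the share went from 1.43% in the first part to 0.884% in the last. It was also lower at the end of introns in genes with an end peak of at least 20, with 2.29% in part 1, 2.16% in part 8 and 1.59% in part 10. Among the 529 genes with 10 or more A-rich peaks, 350 had more of them before the midpoint, 152 had more after it and 27 had equal numbers.

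First introns had a peak at 1.51% of their A-rich sites and middle introns, those after the second and before the last, at 1.21%, a difference of 0.30 percentage points (95% interval 0.25 to 0.35). The share also fell with distance from the canonical start, from 1.74% at 2 to 20 kb over 1.51% at 100 to 200 kb to 0.408% beyond 800 kb. Within genes over 800 kb it went from 1.18% to 0.408% over the same distances. In the genes of that length with an end peak of at least 20 the share was 1.89% (1.38% to 2.59%) at 2 to 20 kb, 1.88% (1.71% to 2.06%) at 200 to 400 kb, 1.63% (1.51% to 1.76%) at 400 to 800 kb and 1.88% (1.67% to 2.11%) beyond 800 kb, so it did not fall steadily. In bulk samples such as these, fewer cells with a transcript and less of it per cell cannot be told apart.

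**Figure D2:**
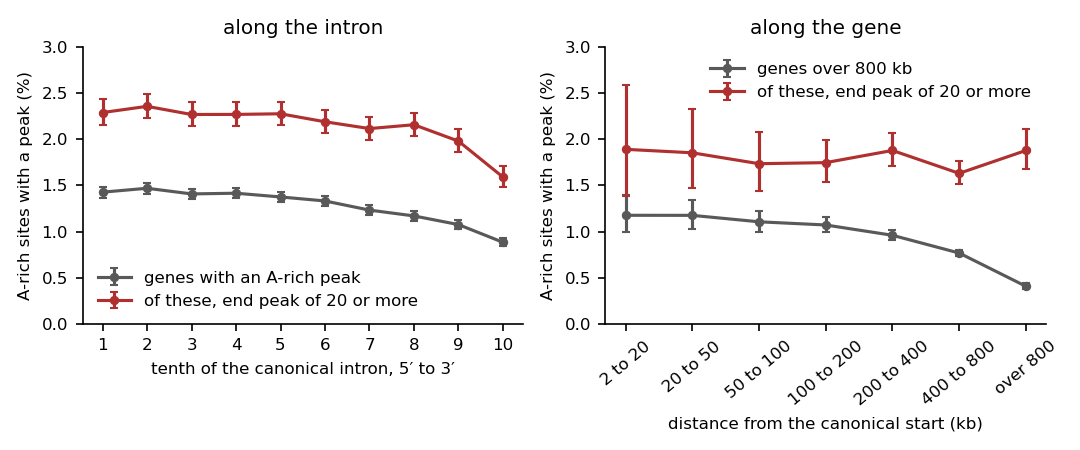
Share of A-rich intronic sites with a peak (percent, y axis) along the canonical intron, cut into 10 equal parts from 5′ to 3′ (left) and by distance in kb from the canonical start in genes over 800 kb (right), for all genes with an A-rich peak (grey) and those with an end peak of at least 20 (red). Points are shares over sites and bars are 95% Wilson intervals. In the red classes the share stays between 1.98% and 2.36% until the last part, at 1.59%, and along the gene it starts at 1.89%, is lowest at 1.63% at 400 to 800 kb and ends at 1.88%.

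A-rich peaks were spread over many genes. The median was 28 per gene with at least 1, 61 genes had a single one, and 152 genes held 50% of them. Within a gene the nearest other A-rich peak lay a median of 3.74 kb away, 16.4% had one within 1 kb and 0 had one within 100 bp. The median width of the peaks was 103 bp, so separate peaks had little room to lie within 100 bp. The number of A-rich peaks followed the number of A-rich sites weakly across the 691 genes (Spearman correlation 0.22), whereas the share of sites with a peak followed the highest end peak across 818 genes with such sites (Spearman correlation 0.74). Both correlations are descriptions, since genes share the same pooled reads and longer genes offer more sites. They cover different measures and genes, since the second includes genes without an A-rich peak. Of 198 genes without an end peak, 87 had an A-rich peak. The others with A-rich sites share the lowest value of both measures.

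RBFOX1, a neuronal splicing regulator, had the most, with 313 A-rich peaks over 2474 kb on chromosome 16 and a peak at 3.10% of its 10065 A-rich sites (95% interval 2.78% to 3.46%). GPC6, a glypican of the cell surface, followed with 179, AUTS2, a Polycomb-associated regulator of neurodevelopment, with 150, and LSAMP with 149. LINGO2 and THSD7B, both membrane proteins, had 128 each, the sarcoglycan SGCZ 123, ASTN2, which acts in neuronal migration, 120, and NALF1, an auxiliary factor of the sodium leak channel NALCN, 117. ADGRB3, an adhesion G protein-coupled receptor, DPP6, an auxiliary subunit of potassium channels, and WWOX, an oxidoreductase at a common fragile site, had 115 each. RBMS3, an RNA-binding protein, had 114, the phospholipase PLCB1 105 and the α-catenin CTNNA2 101, a number also reached by NAV2 and the calcium release channel RYR2. The 15 first genes held 2072, or 9.26%, of the A-rich peaks. Their median pileup per gene was between 7 and 11.

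Most of these genes had peaks along their whole length. In RBFOX1 they ran from 777 kb before to 1686 kb after the canonical start, with 55 before it in introns of longer transcripts, and in LSAMP 43 of 149 lay before the canonical start. LINGO2 had 88 of its 128 before the midpoint of their intron and WWOX 80 of 114, while RBMS3 had 40 of 87 and PLCB1 43 of 102. GPC6 had no peak in the windows at its annotated transcript ends, although its A-rich peaks had a median pileup of 9.

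Among the 529 genes with at least 10 A-rich peaks, the share of A-rich sites with a peak ranged from 0.183% to 6.83% with a median of 1.74%. It was highest in GSE1, a subunit of a corepressor complex, with 42 of 615 sites (6.83%, 95% interval 5.09% to 9.10%), in the adhesion protein SDK2 (6.55%), the homeobox factor CUX2 (5.55%), the splicing regulator RBFOX3 (5.15%) and the RNA-binding protein MSI2 (4.98%, 3.84% to 6.42%). These 5 intervals overlap. It was lowest in SPAG16, a protein of the axoneme, with 11 of 6001 sites (0.183%, 0.102% to 0.328%), the diacylglycerol kinase DGKB (0.204%), the ephrin receptor EPHA6 (0.208%), the retinoic acid receptor RARB (0.209%) and NAALADL2 (0.212%), and these intervals overlap as well. The end peak was 65, 24, 14, 48 and 69 in the first 5 genes. In the last 5 it was 35, 0, 5, 51 and 0. SPAG16 and RARB thus had few A-rich peaks beside a high peak in an end window. Whether that peak came from the gene itself or from a neighbouring gene was not tested, since the list has no strand.

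**Figure D3:**
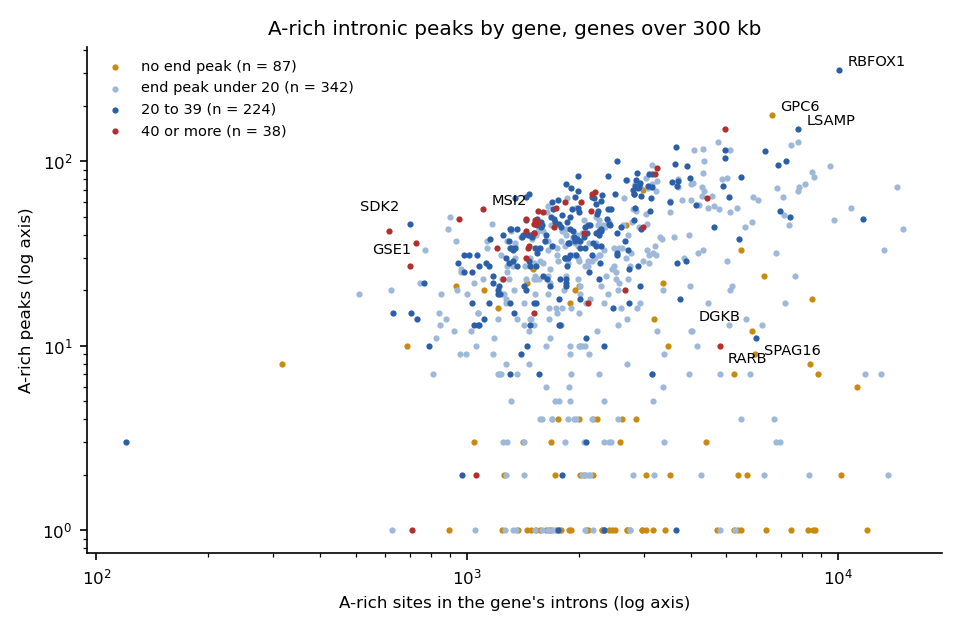
Number of A-rich peaks (y axis, log) against number of A-rich sites (x axis, log) for the 691 genes over 300 kb with at least 1 A-rich peak. Each point is a gene, coloured by the highest pileup at its transcript ends. RBFOX1 has the most with 313, GSE1 has 42 at 615 sites, and SPAG16 has 11 at 6001 sites.

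Genes were also grouped by function, with 14 to 31 genes over 300 kb in each group. Since 691 of all 826 genes over 300 kb had at least 1 A-rich peak, the counts of genes with one do not set most groups apart. Transcription factors and RNA-binding proteins had a peak at 1.71% of their A-rich sites (95% interval 1.61% to 1.80%), and 23 of 27 such genes had at least 1, led by RBFOX1, the nuclear receptor RORA with 83 and TCF12 with 67. Genes of signalling, scaffolds and the cytoskeleton had one at 1.61% (1.54% to 1.70%), in 31 of 31 genes, led by PLCB1, NAV2 and the exocyst subunit EXOC4 with 95. Both shares lay above that of all 826 genes, 1.01%.

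Below it lay ion channels, transmitter receptors and their subunits with 0.892%, in 25 of 31 genes, led by DPP6, RYR2 and the potassium channel KCNQ5 with 97. Axon guidance and neuregulin signalling had 0.834%, in 15 of 16 genes, led by the receptor kinase ALK with 76, SEMA6D with 73 and the receptor ERBB4 with 69. Genes at common fragile sites had 0.734% (95% interval 0.685% to 0.786%), in 14 of 14 genes, led by AUTS2, WWOX and the synaptic scaffold GPHN with 87. Synaptic and cell adhesion genes had the lowest share, 0.528% (0.496% to 0.562%), in 25 of 30 genes, led by LSAMP and CTNNA2. These shares pool the sites of a group, so genes with many sites weigh most. Counted per gene, the median number of A-rich peaks was 16 for channels and receptors and 42 for axon guidance. It was 59.5 for fragile sites and 22 for synaptic and cell adhesion genes, against 21 over all 826 genes. Whether expression differed between the groups was not tested.

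The study compiled a list of DNA damage response genes and a list of genes with premature cleavage and polyadenylation. Of 162 DNA damage response genes, 3 were over 300 kb. The recombination gene RAD51B had 62 A-rich peaks, and the Fanconi anaemia gene FANCC and the methyltransferase MGMT had 20 each, together at 1.66% of their A-rich sites (95% interval 1.37% to 2.01%). Of 809 genes with premature polyadenylation, 18 were over 300 kb. All 18 had A-rich peaks, as did 673 of the other 808 genes over 300 kb. They held 846 in all, led by KCNQ5 with 97, the kinase PRKCA with 75 and the phosphodiesterase PDE4B with 73. A peak stood at 1.82% (1.70% to 1.95%) of their A-rich sites and at 0.992% of those of the other 808 genes. The paper states that genes with low expression were removed before its downstream analyses, whereas the other 808 were not chosen by expression. The comparison of these shares therefore does not hold expression fixed. In the 9 listed genes with an end peak of at least 20 the share was 2.32% (2.12% to 2.54%), against 1.91% (1.88% to 1.95%) in 256 other genes. The study chose this list by nascent RNA sequencing of cells treated with an inhibitor of CDK12 and CDK13, and not from the libraries described here.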

How the data were processed

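Poly(A) 3′-seq reads of 10 IMR-32 libraries were trimmed by the authors, mapped to GRCh38 with STAR 2.5.1b, downsampled to the smallest library and merged across conditions and batches, and peaks were called with MACS2 2.1.1. The deposited columns give the fold ratio of the summit over the local background, the −log10 p-value and q-value of that comparison, and a score, a rescaled q-value that was not analysed. From fold and p-value the pileup at each summit was recovered as a whole number (largest miss 0.000168 in −log10 p). Introns came from GENCODE 44, whereas the study used version 27, and where protein-coding genes overlapped at a summit the longest took the peak. Shares have 95% Wilson intervals and differences have Newcombe intervals, beside two-sided Fisher's exact tests over peaks or sites.

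Named were the 15 genes with the most A-rich peaks, the 5 highest and 5 lowest by share of sites with a peak among genes with at least 10, the 3 leading genes per list and the 5 peaks with the highest q-value, and a few genes and sequences that the rule named are not reported here. The members, the gene lists and the tests were chosen with earlier results of these data known. Alternatives changed the q-value and A thresholds, gene length, transcripts, merging, hexamers and motif windows. The steps were tested on simulated data. Python 3.11.15, numpy 2.4.6, pandas 2.3.3, scipy 1.17.1 and matplotlib 3.10.9 were used.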

Additional observations from a re-analysis of the deposited data

Results flagged for a closer look

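The list has no strand, so each peak was also read as if it came from the other strand. At least 7 T in the 10 bases before the 5′ edge, which is the mirror image of the rule, was found at 599 of the 6931 A-poor peaks (8.64%, 95% Wilson interval 8.004% to 9.33%) in 366 genes. It was found at 322 of the 22366 A-rich peaks (1.44%, 1.29% to 1.60%). The pileup had a median of 7 in both. This signal was not part of the comparisons in the report, and whether these reads came from the strand opposite to the gene was not tested.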

How the results depend on the processing

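The list pools all libraries, so the depth behind each peak is known only as its pileup, a weak peak can fall on either side of the caller's threshold, and no alternative tests biological variation. Counting peaks within 100 bp once could change nothing, since no A-rich peak had another that close. Using canonical transcripts alone kept each of the 6 main values within its interval or within 1.5 times of the main count. The comparisons with A-poor peaks, with shorter genes and between sites were not recomputed under these alternatives. The q-value is computed from the pileup, so the pileup share was bound to rise with its threshold. The share of sites with a peak was bound to fall with that threshold, since the sites stayed the same. A window of 50 bp or fewer hexamers could only lower the hexamer share. A wider window or added spellings could only raise the motif share. The cause of the other changes that follow was not tested. Above a q-value threshold of 20 on the −log10 scale, 346 A-rich peaks remained, with a peak at 0.0155% of A-rich sites, hexamers at 65.6%, 65.2% before the midpoint of the intron, CTCCGTCTC at 2.89% and a pileup of at least 10 at 100%. Above a threshold of 5 the same shares were 0.682%, 47.5%, 55.9%, 4.07% and 43.9%. With at least 8 A, 2.29% of sites had a peak, 40.3% of peaks had a hexamer and 4.67% the motif, and with at least 6 A these were 0.538%, 49.7% and 3.28%. In genes over 500 kb there were 11940 A-rich peaks, at 0.872% of sites, with hexamers at 48.1%, 56.5% before the midpoint and a pileup of at least 10 at 28.6%. The hexamer share was 35.6% upstream of the summit, 34.7% within 50 bp and 18.9% with AATAAA and ATTAAA alone. The motif share was 4.12% within 200 bp and 13.8% in 3 spellings, an alternative chosen after seeing the data. No paired analysis was possible because the deposited peaks carry no value for any single library.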

Other observations

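A-rich peaks were also found in 87 genes over 300 kb that had no peak in any window at an annotated transcript end, 745 peaks in all with a median of 2 per gene. They are named here after their values were seen. GPC6 held 179 of them, at 2.70% of its A-rich sites, followed by ENSG00000285708 on chromosome 3 with 70, the postsynaptic scaffold gene DLGAP2 with 45 and the adhesion gene NEGR1 with 33. Among these 745 peaks, 24.6% reached a pileup of 10 (95% Wilson interval 21.6% to 27.8%), beside 23.5% (22.6% to 24.3%) in genes with an end peak under 20.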
